A study of Mus musculus with 24 samples.

Results

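Genes of the NF-kB pathway, with the upstream signaling genes Bcl10 and Malt1, were followed in the open chromatin of germinal center (GC) B cells. The 9 genes were Malt1, Bcl10, Nfkb1, Nfkb2, Rel, Rela, Relb, Tnfaip3 and Nfkbia. Their peaks were those of the deposited consensus set that overlap a gene body extended by 50 kb on each side, which gave 116 of 65483 peaks. Of these, 11 were promoter peaks, lying within 1 kb of a transcription start site (TSS) of their own gene, and 105 were distal. GC B cells were sorted from the spleens of mice immunized with sheep red blood cells (SRBC), at day 10, and 60000 cells per mouse went into 1 ATAC-seq library, in which a transposase inserts adapters into open DNA. There were 4 WT mice (Cg1Cre+/-), 4 C mice (Cg1Cre+/- with Crebbp fl/+), 4 K mice (Cg1Cre+/- with Kmt2d fl/+) and 5 CK mice (Cg1Cre+/- with both floxed alleles). Every mouse, WT included, carried 1 Cre allele, which is driven from the Cg1 locus and so recombines in B cells that switch this locus on, and each floxed gene kept an intact allele. The mice are described as C57BL/6J females at 8 weeks of age.

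BCL10 and MALT1 act downstream of the B cell receptor, and their activity drives the IkB kinase. NFKBIA (IkB alpha) holds NF-kB dimers in the cytoplasm until that kinase marks it for destruction. RELA and REL pair with the p50 product of Nfkb1 in the canonical arm, whereas RELB pairs with the p52 product of Nfkb2 in the arm used by CD40 and BAFF receptors. MALT1 is also a protease, and TNFAIP3 (A20) is a ubiquitin-editing enzyme that switches the pathway off. In GCs, NF-kB activity is low in the dividing centroblasts and is known for the light-zone centrocytes that receive BCR and CD40 signals. CREBBP acetylates and KMT2D methylates histones at enhancers, so the comparison asked whether losing 1 copy of either or both altered the accessibility of these loci.

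Sequencing depth was even, with 17483706 to 21857738 fragments per library inside peaks. Promoters of all 9 GC B cell markers examined had a peak, with summed levels of 512 to 626 CPM (counts scaled to a common library size) over the 17 mice. Of 6 T cell markers 1 had a promoter peak (Lck), and Cd3e, Cd3g, Cd4, Cd8a and Cd28 had none. Of 5 myeloid markers 2 had one, at 5.54 to 8.33 CPM in sum. Plasma cell markers (4 of 5 with a peak, none at Tnfrsf17) summed to 159 to 181 CPM. Those of naive or memory B cells (5 of 5) summed to 112 to 123 CPM in WT, 106 to 112 in C, 104 to 114 in K and 104 to 121 in CK. Within the last list the promoter of Fcer2a (CD23) fell from a mean of 28.5 CPM in WT to 16.3 in K (adjusted p = 0.000361) and 17.4 in CK (adjusted p = 8.8e-05 in edgeR's quasi-likelihood test). Other markers of that list did not pass in C, K or CK, with Cd38 at 13.5 CPM in WT, 16.1 in K and 16.4 in CK, Cr2 at 35.9, 36.8 and 36.8 and Ccr6 at 39.5, 38.6 and 39.4. The part of such cells in the values below was not tested. In sorted cells in bulk, fewer cells with an open site and less opening per cell cannot be told apart. Although the mice are described as female, single-copy Y chromosome signal was present in 9 of the 17 libraries (2 of WT, 2 of C, 3 of K and 2 of CK). No peak within 2.5 Mb of the 9 loci was among the peaks called in C, where 0.16% of all peaks were. In these wide windows the share called in K ran from 0% (Bcl10) to 2.54% (Nfkbia), against 1.48% of all peaks. In CK it ran from 3.85% (Bcl10) to 8.47% (Nfkbia), against 6.84%.

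**Figure D1:**
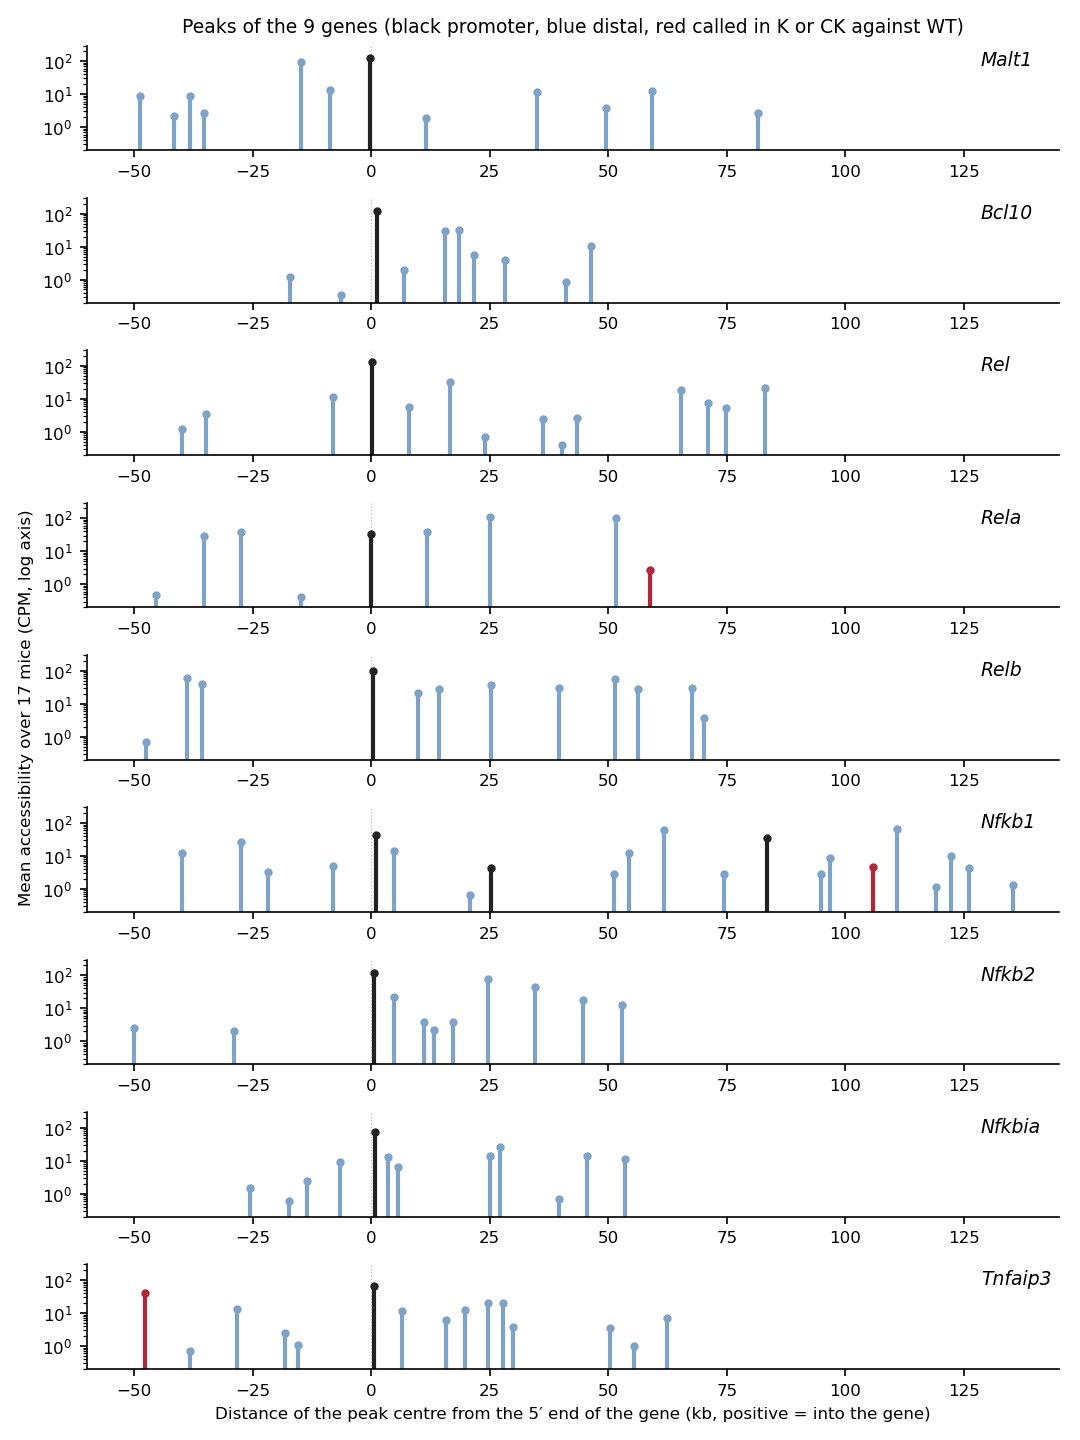
Map of the peaks at the 9 loci, 1 row per gene, by distance from the gene's start (kb, along its own strand), with height giving the mean CPM over 17 mice on a log axis and promoter peaks in black, distal peaks in blue and called ones in red. The loci held between 9 (Rela) and 21 (Nfkb1) peaks, and only Nfkb1 had more than 1 promoter peak.

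Loci differed in how their open chromatin was laid out. Nfkb1, the longest of the genes, held 21 peaks, of which 3 were promoter peaks at its annotated starts, and Tnfaip3 held 15. Malt1 and Relb each held 12, and Rela held 9. Some windows reached neighbouring genes, so that 4 of the 8 distal peaks of Rela, 5 of the 10 of Nfkb2 and 6 of the 11 of Relb lay within 1 kb of the TSS of another coding gene. At Nfkb1, Rel, Nfkbia and Tnfaip3 no distal peak did.

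Promoter accessibility was compared between genes per kb of peak, as CPM per kb with the SD over the 17 mice. The promoter of Malt1 was the most open of the 9 at 66.2 ± 2.87 CPM per kb, and 97.4% of the 13947 promoter peaks in the data had a lower level. Rel, which encodes the c-Rel subunit of lymphoid cells, lay at 58.0 ± 3.88, Bcl10 at 57.9 ± 1.82, Relb at 57.9 ± 2.62 and Nfkb2 at 56.0 ± 3.00 CPM per kb. Those of Rel and Bcl10, and of Bcl10 and Relb, did not differ beyond the spread between mice, the gene with the higher mean being higher in 8 of 17 mice in both pairs, and Relb was above Nfkb2 in 14 of 17. Below them came the inhibitors, Tnfaip3 at 39.0 ± 1.87 and Nfkbia at 28.7 ± 1.92 CPM per kb. Rela at 19.1 ± 2.11 and Nfkb1 at 15.3 ± 0.989 CPM per kb were the least open, at a level above 45.8% and 37.9% of promoter peaks. Malt1 exceeded Rel, and each gene from Nfkb2 down exceeded the next in the order, in all 17 mice. Of the pairs that form dimers, Rel thus lay well above Nfkb1, whereas Rela and Nfkb1 were nearer to each other, as were Relb and Nfkb2. This order rests on dividing by peak width. In CPM per peak Rel was above Malt1 (136 against 129), and Nfkb1 was above Rela (43.0 against 33.9).

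NF-kB dimers bind kB sites, and the promoter sequences of 4 members are shown because the genes encode these dimers and their inhibitors and have matches to the kappaB consensus. RefSeq promoter windows of 300 bases, from 250 before to 50 after a start (GRCm38), were matched for 6 of the 9 genes. Malt1, Nfkb1 and Relb had no entry. The consensus was searched on both strands, with overlapping matches drawn as 1 run of capitals, and it occurred in 5 of the 6 genes, against 9.55% of 27025 genes in the table, and in 7 of their 9 windows, against 8.46% of 32851 windows. Rela had no match. Capitals mark the matches.
Nfkbia chr12:55492598-55492897 (-): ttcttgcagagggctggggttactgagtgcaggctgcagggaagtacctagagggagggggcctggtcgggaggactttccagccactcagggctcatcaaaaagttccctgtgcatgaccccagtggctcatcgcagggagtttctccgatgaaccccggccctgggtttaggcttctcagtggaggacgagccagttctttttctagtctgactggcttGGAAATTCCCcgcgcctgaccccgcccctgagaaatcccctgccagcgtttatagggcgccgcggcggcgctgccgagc
Tnfaip3 chr10:19015361-19015660 (-): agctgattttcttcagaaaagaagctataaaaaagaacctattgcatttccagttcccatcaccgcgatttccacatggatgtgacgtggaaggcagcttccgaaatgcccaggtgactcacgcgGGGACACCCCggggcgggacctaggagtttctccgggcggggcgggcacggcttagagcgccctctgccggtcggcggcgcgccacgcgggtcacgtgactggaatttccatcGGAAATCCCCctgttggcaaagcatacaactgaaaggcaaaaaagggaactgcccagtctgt
Rel chr11:23770920-23771219 (-): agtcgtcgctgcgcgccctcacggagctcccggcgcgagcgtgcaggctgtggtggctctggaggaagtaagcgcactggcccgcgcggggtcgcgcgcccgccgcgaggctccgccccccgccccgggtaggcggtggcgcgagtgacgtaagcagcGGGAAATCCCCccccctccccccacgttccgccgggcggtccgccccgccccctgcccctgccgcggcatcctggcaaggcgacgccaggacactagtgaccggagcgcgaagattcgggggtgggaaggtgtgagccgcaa
Nfkb2 chr19:46304487-46304786 (+): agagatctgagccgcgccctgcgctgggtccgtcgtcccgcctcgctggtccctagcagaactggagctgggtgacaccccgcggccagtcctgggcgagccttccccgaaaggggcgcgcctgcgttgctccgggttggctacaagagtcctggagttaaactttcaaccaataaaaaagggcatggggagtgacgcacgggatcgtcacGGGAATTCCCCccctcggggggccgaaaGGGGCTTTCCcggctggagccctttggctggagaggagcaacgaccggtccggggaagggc
In windows of the same length around the centres of the member peaks, the consensus occurred in 10 of 116 centres (8.62%), against 7.24% of all 65483 peaks. The AP-1 motif TGANTCA was in 11 (9.48%, against 8.92%), the E-box CAGGTG in 30 (25.9%, against 24.1%) and the PU.1 motif GAGGAAGT in 2 (1.72%, against 5.84%). A match describes these letters and is not a site of binding.

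None of the 11 promoter peaks passed the test in any mutant genotype. A peak was called where its adjusted p was under 0.01 by the quasi-likelihood test of edgeR, with the Benjamini-Hochberg procedure run over all 65483 peaks. By this rule 0.122% of all promoter peaks were called in C, 2.01% in K and 10.5% in CK, each against WT. DESeq2 called 0 of the 11 as well, and at an unadjusted p under 0.05 there were 1 in C, 1 in K and 2 in CK (9.09%, 9.09% and 18.2%, against 8.59%, 26.6% and 35.4% of all promoter peaks). Their median log2 fold change in CK was 0.064, against 0.061 over all promoter peaks.

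The promoter of Nfkb1 came nearest among them in CK. Its peak at the main start (chromosome 3, gene body 135584655 to 135691547, minus strand) had 42.9, 42.2, 37.9 and 41.0 CPM in the 4 WT mice and 48.7, 45.8, 44.4, 45.2 and 45.9 CPM in the 5 CK mice. Every CK mouse was above every WT mouse. C mice had 41.5, 40.0, 39.3 and 44.0 CPM and K mice 43.9, 43.9, 40.2 and 44.5 CPM, and both overlapped WT. The log2 fold change in CK was 0.17 (95% interval 0.063 to 0.27, adjusted p = 0.0256 in edgeR's quasi-likelihood test), which did not pass the threshold. Total counts as library sizes (adjusted p = 0.0084) and loess offsets (adjusted p = 0.00951) brought it under 0.01. The other 2 promoter peaks of Nfkb1, at alternative starts within the gene, had log2 fold changes in CK of 0.012 and 0.067 (adjusted p = 0.915 and 0.767).

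At Malt1, the gene of a signaling protease (chromosome 18, 65430938 to 65479067, plus strand), the promoter peak had 136, 136, 132 and 138 CPM in WT, 125, 126, 124 and 133 in C mice, 126, 129.6, 124 and 129 in K and 138, 126, 119, 124 and 127 in CK. All K mice were below all WT mice, whereas C 4 lay inside the WT range and CK 1 at its top. The log2 fold changes were close to each other, at -0.090 in C, -0.089 in K and -0.094 in CK (95% interval -0.18 to -0.012), and none passed the test (adjusted p of 0.537, 0.228 and 0.116 in edgeR's quasi-likelihood test). With counts scaled within bins of GC content the CK value was -0.16 and was called (adjusted p = 0.00382).

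Among the remaining promoters, Bcl10, which encodes a signaling adaptor, had a mean ± SD of 121 ± 2.70 CPM over the 4 WT mice and 116 ± 5.40 over the 5 CK mice. For Rel the WT mice were at 134 ± 9.76, the 4 C mice at 126 ± 1.83 and the CK mice at 141 ± 7.96 CPM. The Rela promoter was at 32.5 ± 5.04 CPM in WT and 35.6 ± 3.31 in CK. In each of these genes the WT and CK mice overlapped. The log2 fold change in CK was -0.056 (95% interval -0.13 to 0.022, adjusted p = 0.348) for Bcl10, 0.069 (95% interval -0.028 to 0.17, adjusted p = 0.360) for Rel and 0.13 (95% interval -0.039 to 0.30, adjusted p = 0.310) for Rela. For the non-canonical pair it was 0.017 (95% interval -0.078 to 0.11, adjusted p = 0.855) for Relb and 0.064 (95% interval -0.036 to 0.16, adjusted p = 0.417) for Nfkb2. Of the inhibitors, Nfkbia had 0.11 (95% interval -0.00088 to 0.22, adjusted p = 0.177) and Tnfaip3 0.062 (95% interval -0.026 to 0.15, adjusted p = 0.361). These 7 intervals all lay between -0.13 and 0.30. Between the mutant genotypes, Rel was higher in CK than in C in every mouse, with a log2 fold change of 0.16 that missed the threshold (adjusted p = 0.0363 in edgeR's quasi-likelihood test).

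**Figure D2:**
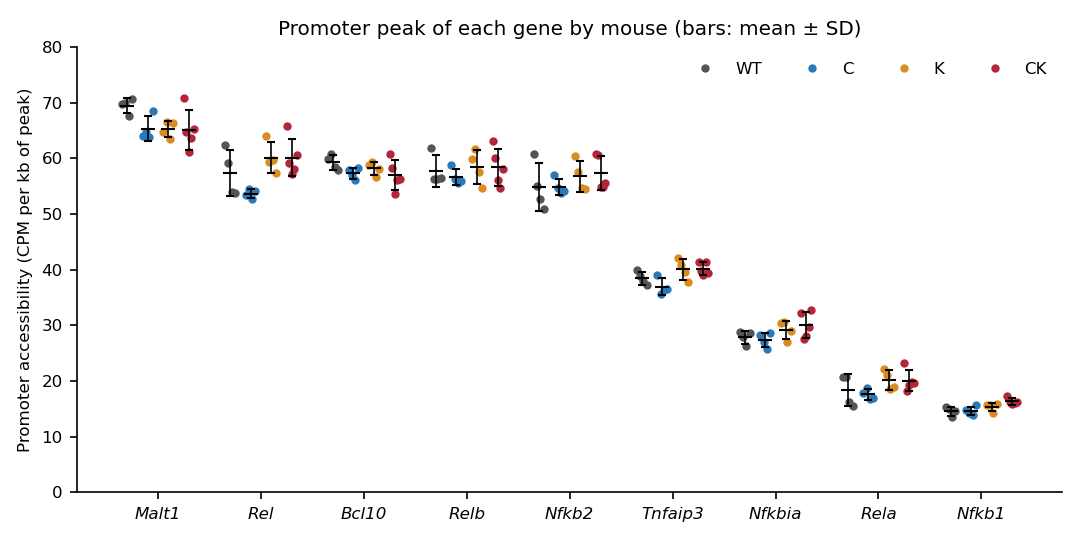
Promoter accessibility of the 9 genes in each mouse by genotype, in TMM-normalised CPM per kb of peak, with the mean and SD of each genotype. WT, C, K and CK overlap at most genes, and at Nfkb1 every CK mouse (15.8 to 17.3 CPM per kb) lies above every WT mouse (13.5 to 15.3 CPM per kb).

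Over all 116 peaks, calls at these loci were few. In C against WT 0 peaks were called by edgeR's quasi-likelihood test and 0 by DESeq2, with 7 at an unadjusted p under 0.05 (6.03%, against 8.9% of all peaks), where 0.16% of all peaks were called. In K 2 peaks were called (1.72%, against 1.48% of all peaks) and in CK 3 (2.59%, against 6.84%). All of these called peaks rose, where 0.647% of all peaks were called higher and 0.828% lower in K, and 3.54% and 3.3% in CK. With loess offsets CK had 4 higher and 1 lower, and with GC content bins, a filter of 1 CPM in 4 libraries or the Y chromosome gene signal as a covariate 3 higher and 1 lower. With only WT and CK in the fit 0 were higher and 1 lower. At an unadjusted p under 0.05 there were 19 in K (16.4%, against 20.6%) and 29 in CK (25%, against 28.9%). At an adjusted p under 0.05 there were 15 in CK, 7 higher and 8 lower, against 15.4% of all peaks. CK and WT mice did not overlap at 11 of the 116 peaks, 5 higher and 6 lower, where this was so for 13% of all peaks. K and WT mice did not overlap at 10 (11.3% of all peaks), and C and WT mice at 4 (5.66%). The median absolute log2 fold change in CK was 0.12 over the member peaks and 0.16 over all peaks.

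The counts moved with single mice. With each mouse left out in turn, the count in CK lay between 0 and 5, with 0 without WT 2 or CK 1, 1 without WT 3, WT 4 or CK 3, and 5 without K 1. In K it lay between 0 and 2, with 0 without WT 1, WT 2, WT 3, K 1, K 2 or K 4 and 1 without any of the others except CK 4. In fits of only the 2 genotypes compared, none of the 3 peaks called in CK passed the test (adjusted p of 0.0112, 0.0189 and 0.0141 at Rela, Nfkb1 and Tnfaip3 by edgeR), and 1 other member peak did, 14.8 kb upstream of Malt1 at -0.20 (adjusted p = 0.00941).

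**Figure D3:**
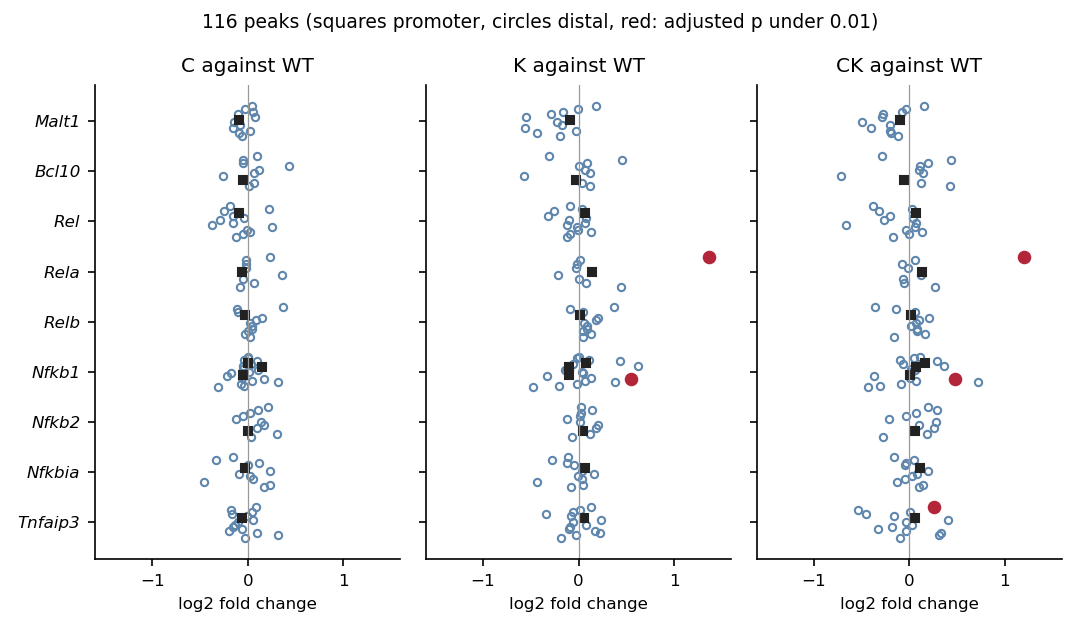
Log2 fold change of the member peaks against WT (horizontal axis) in C, K and CK, by gene, with squares for promoter peaks, circles for distal ones and called peaks in red. Most points lie near 0, and the called points are 2 in K and 3 in CK, all on the higher side.

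The largest change was at a weak site in the window of Rela (chromosome 19, gene body 5637483 to 5648130, plus strand). The peak spanned 558 bp, 58.8 kb downstream of the start of Rela and inside Map3k11, a kinase gene whose TSS was 3069 bp away, so its place in the list rests on distance alone. The 300 bases at its centre are given because it was called in both K and CK, with capitals on its CAGGTG E-box.
Rela window chr19:5696093-5696392 (+): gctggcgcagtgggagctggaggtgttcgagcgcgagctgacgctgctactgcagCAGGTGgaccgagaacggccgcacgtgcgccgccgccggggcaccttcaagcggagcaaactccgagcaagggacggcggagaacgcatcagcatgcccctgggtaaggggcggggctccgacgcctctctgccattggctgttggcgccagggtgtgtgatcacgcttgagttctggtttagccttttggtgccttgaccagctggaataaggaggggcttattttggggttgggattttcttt
It had 1.65, 1.51, 1.59 and 1.16 CPM in WT and 1.94, 2.03, 1.16 and 1.81 CPM in C. K mice had 4.30, 3.40, 3.04 and 4.61 CPM, and CK mice 4.14, 1.83, 1.61, 4.08 and 5.59 CPM. All K mice lay above all WT mice, while WT and CK overlapped, with CK 3 inside the WT range and CK 2 just above it, and the other CK mice were at the level of K. It rose in K by a log2 fold change of 1.37 ± 0.29 (SE), or 2.59-fold (adjusted p = 0.00673 in edgeR's quasi-likelihood test), and in CK by 1.20 ± 0.28, or 2.30-fold (adjusted p = 0.00490). In C the value was 0.23 (adjusted p = 0.891), and CK exceeded C by 0.97 (adjusted p = 0.0302), which missed the threshold. The call in K was lost without any 1 of WT 1, WT 2, WT 3, WT 4, K 1, K 2 or K 4 (log2 fold changes of 1.26 to 1.47, adjusted p of 0.00228 to 0.0308 over the 17 fits) and that in CK without WT 2, WT 3, WT 4, CK 1, CK 4 or CK 5 (0.97 to 1.39, adjusted p of 0.000618 to 0.0245).

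Nfkb1 held the other peak that rose in both K and CK. It was a narrow site of 237 bp in an intron near the 3' end of the gene, 106 kb from the main start, and its whole sequence holds none of the 4 motifs searched.
Nfkb1 intron chr3:135585648-135585884 (+): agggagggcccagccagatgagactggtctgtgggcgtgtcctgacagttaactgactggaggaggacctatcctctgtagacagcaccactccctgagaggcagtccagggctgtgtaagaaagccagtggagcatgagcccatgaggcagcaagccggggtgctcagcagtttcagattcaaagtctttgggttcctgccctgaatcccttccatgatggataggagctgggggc
Its values were 3.30, 3.29, 3.84 and 4.60 CPM in WT, 4.06, 4.24, 4.40 and 4.25 CPM in C mice, 5.89, 4.87, 5.18 and 5.998 CPM in K and 5.22, 4.68, 5.16, 5.88 and 5.13 CPM in CK. Every K and every CK mouse was above every WT mouse, and C lay between, overlapping WT. The log2 fold change was 0.55 ± 0.12 (SE), or 1.46-fold, in K (adjusted p = 0.00947 in edgeR's quasi-likelihood test) and 0.47 ± 0.12, or 1.39-fold, in CK (adjusted p = 0.00733). CK and K differed by -0.075 (95% interval -0.30 to 0.15, adjusted p = 0.952). The call in K was kept only without WT 4 or CK 4 and lost without each of the other 15 mice (0.49 to 0.66, adjusted p of 0.00778 to 0.0425), and that in CK was lost without WT 1, WT 2, WT 3, CK 1, CK 3, CK 4 or CK 5 (0.42 to 0.58, adjusted p of 0.00379 to 0.0305). Both were lost with GC content bins, at 0.49 (adjusted p = 0.0245) and 0.41 (adjusted p = 0.0229).

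At Tnfaip3 (chromosome 10, 19000910 to 19015657, minus strand) the strongest distal peak rose in CK. It spanned 3166 bp and lay 47.8 kb upstream of the gene. The peak had 40.8, 33.6, 37.7 and 39.6 CPM in WT, 41.3, 38.7, 38.8 and 41.9 in C mice, 38.8, 39.5, 45.2 and 42.0 in K and 45.8, 51.4, 45.1, 42.9 and 41.5 in CK. All CK mice were above all WT mice, and C and K overlapped both. The log2 fold change in CK was 0.26 ± 0.063 (SE), or 1.20-fold (adjusted p = 0.00727 in edgeR's quasi-likelihood test), with 0.13 in K (adjusted p = 0.293) and 0.082 in C (adjusted p = 0.778). The call was lost without WT 2, WT 3, WT 4, C 2, C 4, CK 1, CK 2 or CK 3 (0.20 to 0.29, adjusted p of 0.00379 to 0.0379) and with the share of Y chromosome counts as a covariate (0.21, adjusted p = 0.0353).

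Tnfaip3 had further peaks that came near the threshold, in both directions. An intron peak 6.4 kb into the gene went from 10.3 ± 1.10 CPM in WT (mean ± SD of 4 mice) to 13.6 ± 2.23 CPM in CK (5 mice), at 0.40 (adjusted p = 0.0227) on the log2 scale. One 27.9 kb downstream of the start went the other way, from 22.8 ± 3.87 CPM to 18.2 ± 3.07, at -0.33 (adjusted p = 0.0349) in edgeR's quasi-likelihood test. The weaker ones had 0.33 (adjusted p = 0.0469) at 50.3 kb and -0.45 (adjusted p = 0.0446) at -18.2 kb. So 5 of the 15 peaks of this locus had an adjusted p under 0.05 in CK, 3 of them higher and 2 lower, where 15.4% of all peaks did. The locus was picked out after its values were seen.

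**Figure D4:**
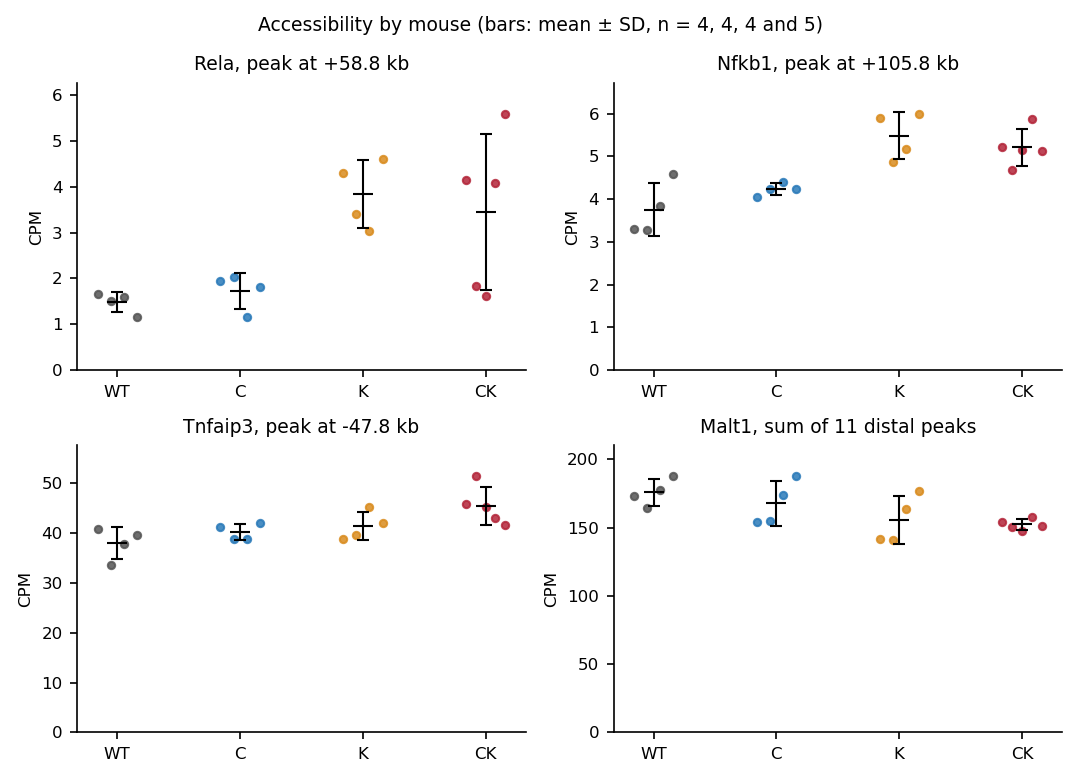
Accessibility in each mouse of the 3 called peaks and of the summed distal peaks of Malt1, in TMM-normalised CPM by genotype, with the mean and SD. At the site in the Rela window, CK 3 lies within the WT range, CK 2 just above it and the other CK mice near K, while at the Nfkb1 intron and upstream of Tnfaip3 every CK mouse is above every WT mouse and at Malt1 every CK mouse is below.

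The distal peaks of each gene were also summed, and 0 of the 9 sums was called in C, K or CK by edgeR's quasi-likelihood test over 17699 gene loci, where 0.452%, 2.54% and 11.2% of all loci were. DESeq2 called 0, 0 and 1, and at an unadjusted p under 0.05 there were 2, 1 and 1 (22.2%, 11.1% and 11.1%, against 10.3%, 26.6% and 36.2% of all loci). The lowest p in CK was that of Malt1. Its 11 distal peaks summed to 173, 164, 178 and 188 CPM in WT, 154, 155, 174 and 188 in C mice, 141, 141, 163 and 177 in K and 154, 150.3, 148, 158 and 152 in CK. Every CK mouse was below every WT mouse, whereas 2 C mice and 1 K mouse were inside the WT range. The log2 fold change was -0.070 in C (adjusted p = 0.773), -0.17 in K (95% interval -0.31 to -0.041, adjusted p = 0.0875) and -0.21 in CK (95% interval -0.33 to -0.081, adjusted p = 0.0172), and so missed the threshold in each. CK and K differed by -0.033 (95% interval -0.16 to 0.094, adjusted p = 0.992). With the replicate number as a block in edgeR, the Malt1 sum was called in K (-0.18, adjusted p = 0.00712) and CK (-0.20, adjusted p = 0.0011). Whether replicate numbers pair the mice is not settled. DESeq2 (adjusted p = 0.00666), a fit of WT and CK alone (adjusted p = 0.000894) and leaving out K 4 (adjusted p = 0.00776) brought the CK value under the threshold, and over all fits without 1 mouse it lay between -0.24 and -0.18 (adjusted p of 0.00776 to 0.0794).

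Negative values at Malt1 occurred at most distal peaks, but in CPM the fall in CK was largest at the strongest peak. Over all distal peaks in the data the median log2 fold change was -0.029 in CK, -0.032 in K and 0.0072 in C. At Malt1 10 of the 11 distal peaks had a negative log2 fold change in CK, as did 10 in K and 7 in C. The strongest, 14.8 kb upstream, had 97.9, 94.0, 101 and 111 CPM in WT and 86.7, 87.5, 86.3, 90.5 and 88.7 in CK, without overlap, at -0.20 (adjusted p = 0.0314) in edgeR's quasi-likelihood test. A peak 8.7 kb upstream had 15.1, 13.8, 16.6 and 19.05 CPM in WT and 10.5, 10.2, 8.99, 14.8 and 12.9 in CK, overlapping in 1 CK mouse, at -0.49 (adjusted p = 0.0306). In the intron peak 35.0 kb into the gene, WT had 13.1, 12.6, 12.5 and 13.7 CPM and CK 11.03, 12.1, 10.9, 10.3 and 9.10 CPM, again without overlap, at -0.28 (adjusted p = 0.0463). The exception was a peak 81.5 kb from the start, beyond the gene's end, with 0.15 (adjusted p = 0.526). Peaks of 1 locus come from the same mice and are not separate tests. A one-sided count was not particular to Malt1, as 10 of the 11 distal peaks of Relb were higher in K and 8 in CK.

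The other 8 distal sums had values nearer to 0. In CK they were 0.059 (95% interval -0.017 to 0.14, adjusted p = 0.250) for Bcl10, -0.065 (95% interval -0.16 to 0.027, adjusted p = 0.304) for Rel, -0.012 (95% interval -0.071 to 0.047, adjusted p = 0.790) for Rela and 0.037 (95% interval -0.020 to 0.095, adjusted p = 0.342) for Nfkb1. For Relb the value was 0.046 (95% interval -0.023 to 0.11, adjusted p = 0.336) and for Nfkb2 0.073 (95% interval -0.0010 to 0.15, adjusted p = 0.144). The inhibitors had 0.049 (95% interval -0.029 to 0.13, adjusted p = 0.367) at Nfkbia and 0.031 (95% interval -0.041 to 0.10, adjusted p = 0.549) at Tnfaip3, where single peaks with positive and with negative values lay side by side. In C the highest values were at Bcl10, 0.096 (95% interval 0.016 to 0.18, adjusted p = 0.349), and at Nfkbia, 0.090 (95% interval 0.0079 to 0.17, adjusted p = 0.417), neither past the test.

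For the members without a called peak, the peak with the lowest adjusted p in CK was examined in each mouse. At Bcl10 (chromosome 3, 145922804 to 145934356, plus strand) it was an intron site of 452 bp, 7.0 kb into the gene, with 2.87, 2.92, 2.06 and 2.55 CPM in WT, 2.28, 1.64, 1.41 and 1.66 in K and 0.985, 1.45, 1.66, 2.14 and 1.67 in CK. CK 4 and K 1 lay inside the WT range and the other mice of both genotypes below it. Its log2 fold change was -0.71 (95% interval -1.09 to -0.33, adjusted p = 0.0102 in edgeR's quasi-likelihood test), just outside the threshold, and it passed without 3 of the 17 mice, with loess offsets, with the Y chromosome gene signal as a covariate or with a filter of 1 CPM in 4 libraries. At Nfkb2 (chromosome 19, 46304320 to 46312385, plus strand) it lay over an exon, 4.8 kb into the gene. WT mice had 18.9, 19.3, 19.1 and 19.7 CPM, K mice 26.3, 19.9, 20.99 and 20.6 and CK mice 22.2, 22.9, 22.5, 22.9 and 25.2. All K and all CK mice were above all WT mice, at 0.19 in K (adjusted p = 0.162) and 0.26 in CK (adjusted p = 0.0165), and DESeq2 called it in CK (adjusted p = 0.00945).

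At Relb (chromosome 7, 19606217 to 19629438, minus strand) the peak was its strongest distal one, 38.9 kb upstream and 1869 bp from the TSS of Clptm1. It had 61.0, 61.7, 63.5 and 65.9 CPM in WT, 58.9, 60.1, 55.2 and 58.5 in C mice, 60.7, 59.1, 58.6 and 58.1 in K and 57.4, 60.7, 56.0, 54.4 and 57.1 in CK. All mutant mice of the 3 genotypes were below all WT mice, by log2 fold changes of -0.11, -0.092 and -0.14 (adjusted p = 0.413, 0.243 and 0.0243 in edgeR's quasi-likelihood test). The 3 comparisons share the same WT mice. At Rel (chromosome 11, 23736847 to 23770970, minus strand) a peak 8.0 kb upstream had 15.7, 12.1, 11.997 and 11.9 CPM in WT, 10.9, 11.6, 9.91 and 10.9 in C mice, 10.7, 10.8, 9.68 and 11.9 in K and 9.70, 10.1, 11.5, 9.96 and 10.5 in CK. C and CK lay below WT without overlap, WT 1 stood above the other WT mice, and the log2 fold change in CK was -0.32 (adjusted p = 0.0247). At Nfkbia (chromosome 12, 55489410 to 55492647, minus strand) the lowest adjusted p in CK was 0.171, at a peak 3.5 kb downstream of its start with 12.5, 11.5, 10.8 and 13.01 CPM in WT and 12.4, 15.9, 15.2, 12.9 and 12.04 in CK, which overlapped.

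**Figure D5:**
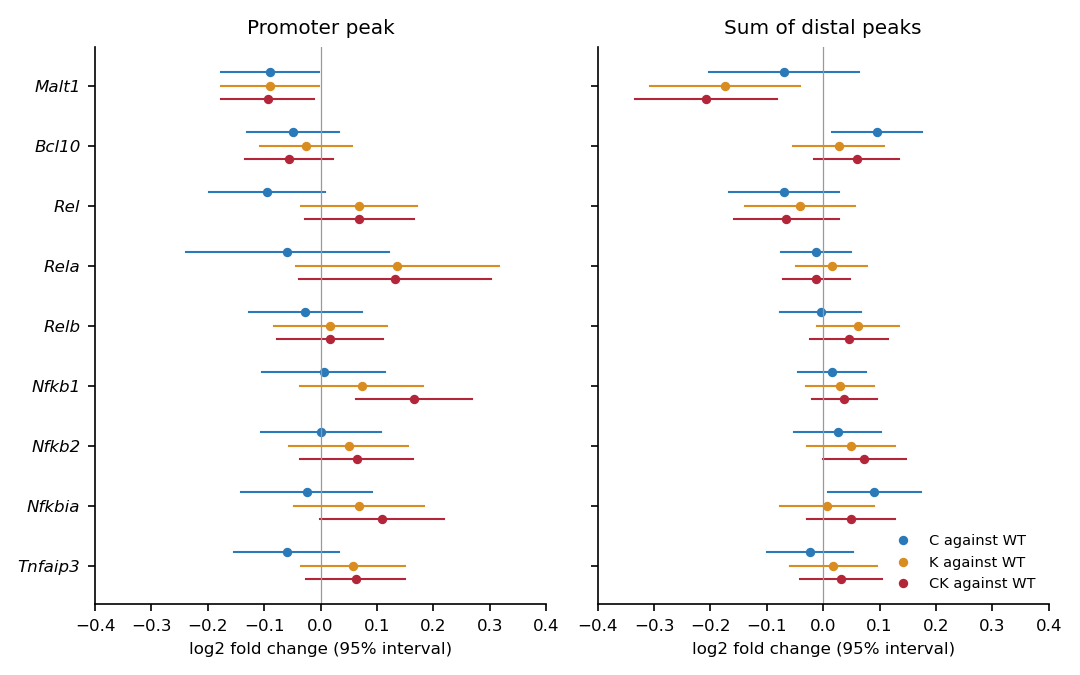
Log2 fold change against WT of the promoter and of the summed distal peaks of each of the 9 genes in C, K and CK, with 95% intervals from the edgeR fit. In CK the intervals leave out 0 at the promoters of Nfkb1 (0.063 to 0.27) and Malt1 (-0.18 to -0.012) and at the distal sum of Malt1 (-0.33 to -0.081), and include it at the other genes.

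The mutant genotypes were compared with each other as well. In CK against K 0 of the 116 peaks were called by edgeR's quasi-likelihood test and 0 by DESeq2, with 4 at an unadjusted p under 0.05 (3.45%), where 0.00916% of all peaks were called and 7.35% had such a p. At 0 of the 116 did the mice of CK and K not overlap (1.96% of all peaks). In CK against C 0 were called by edgeR and 1 by DESeq2, with 21 at an unadjusted p under 0.05 (18.1%), where 1.68% of all peaks were called and 21.2% had such a p. The 3 with an adjusted p under 0.05 (6.68% of all peaks) were the promoter of Rel, the site in the Rela window and a peak 46.4 kb downstream of the start of Bcl10 at -0.38 (adjusted p = 0.0264), which was the one called by DESeq2. CK and C mice did not overlap at 6 of the 116 peaks (9.12% of all peaks).

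Another 52 genes of the pathway outside the 9 members were read in the same fit. They were 25 genes of upstream receptors, adaptors and kinases, 13 inhibitors and feedback genes and 14 targets. Of the 51 with a promoter peak, 0 were called in C (0.117% of genes with a promoter peak were, and of the 51 there were 1 at an unadjusted p under 0.05 and 0 by DESeq2), 1 in K (1.99%) and 1 in CK (9.91%). At an unadjusted p under 0.05 there were 8 in K and 12 in CK, or 15.7% and 23.5%, against 8.1%, 25.7% and 34% of genes in C, K and CK. The called one was Ebi3 in both, a cytokine subunit gene of the target list, which fell by 0.86 in K (adjusted p = 0.000127) and by 0.54 in CK (adjusted p = 0.00086) on the log2 scale. WT mice had 7.26 to 9.14 CPM there, K mice 3.93 to 5.23 and CK mice 5.07 to 6.14, so both mutant genotypes lay wholly below WT. Of the 52 distal sums, 0 were called in C (5 at an unadjusted p under 0.05 and 0 by DESeq2), 0 in K (17, and 1 by DESeq2) and 7 in CK (13.5%, against 11.2% of all loci), 3 higher and 4 lower. In CK 24 had an unadjusted p under 0.05 and DESeq2 called 11. As shares of the 52, those under 0.05 were 9.62% in C, 32.7% in K and 46.2% in CK, beside the 10.3%, 26.6% and 36.2% of all loci.

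The 7 called values were distal sums, and no promoter peak of these genes was called. Of the 25 upstream genes the distal sums of 2 rose. That of Cd40, the receptor for T cell help, was higher in CK, with 127 to 140.0 CPM in WT, 149 to 154 in CK and a log2 fold change of 0.17 (adjusted p = 0.00133) in edgeR's quasi-likelihood test. That of Rbck1 (HOIL-1, of the linear ubiquitin ligase) rose as well, with 106 to 116 CPM in WT, 118 to 125 in CK and a log2 fold change of 0.17 (adjusted p = 0.00470). Their promoter peaks in CK were at -0.054 (adjusted p = 0.555) for Cd40 and -0.016 (adjusted p = 0.864) for Rbck1 in the same test. Of the inhibitor list Bcl3, an atypical IkB protein, fell, with 232 to 245 CPM in WT, 211 to 221 in CK and a log2 fold change of -0.15 (adjusted p = 0.000610). Among the targets, Bcl2l1 (BCL-XL, a survival gene) rose, with 186 to 208 CPM in WT, 219 to 227 in CK and a log2 fold change of 0.18 (adjusted p = 0.00132). Of the same list 3 fell. Ccr7, a homing receptor, fell, with 175 to 188 CPM in WT, 154 to 164 in CK and a log2 fold change of -0.20 (adjusted p = 0.000478). Slamf1, an adhesion and signalling receptor, fell from 176 to 200.2 CPM in WT to 159 to 172 in CK, at -0.15 (adjusted p = 0.00550). Cd69, which holds activated lymphocytes in tissue, fell from 297 to 339 CPM in WT to 254 to 289.5 in CK, at -0.18 (adjusted p = 0.00627). In all 7, WT and CK did not overlap, but they were picked by their p in this same comparison, so this adds no separate evidence. Single mice ended the calls at Rbck1 (without WT 1, WT 3, WT 4, CK 1, CK 2 or CK 4), Slamf1 (WT 3, WT 4, CK 1 or CK 4) and Cd69 (WT 3, WT 4, CK 2 or CK 3), and GC content bins those at Cd40 (0.084, adjusted p = 0.0187), Slamf1 (-0.069, adjusted p = 0.0518) and Cd69 (-0.12, adjusted p = 0.0304). The choice of peaks ended others. Counting only the gene body ended those at Bcl3 (adjusted p = 0.0267), Ccr7 (0.0928), Bcl2l1 (0.12) and Cd40 (0.671), and a window of 25 kb those at Cd40 (0.137), Slamf1 (0.0333) and Cd69 (0.189). Without peaks at the TSS of other coding genes, Rbck1 (0.209) and Bcl2l1 (0.0236) were lost, and in a window of 100 kb Bcl3 was (0.0303). Slamf1 was also lost with total counts as library sizes (0.0147) and Cd69 with the share of Y chromosome counts as a covariate (0.0195), so each of the 7 calls was lost under at least 1 alternative.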

How the data were processed

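ATAC-seq libraries of splenic GC B cells from 17 mice were analysed, with 1 library per mouse, and genotypes came from the labels. Reads were aligned to mm10 and consensus peaks made by the authors in an nf-core workflow, and what they deposited is the unscaled featureCounts count of fragments in each peak. 0 columns were left out, and 7 samples of sorted centroblasts and centrocytes were not analysed here. No 2 libraries of a genotype agreed within sampling noise.

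Counts were fitted in edgeR 4.0.16 (R 4.3.3) with TMM factors and 1 coefficient per genotype over all 17 libraries, after a filter of 10 counts over all libraries, which removed 0 peaks. Each contrast used edgeR's quasi-likelihood test, with p-values adjusted by Benjamini-Hochberg over 65483 peaks and calls made under 0.01. Distal peaks were summed per gene and fitted over 17699 loci. Intervals are 95% intervals of the fitted log2 fold change. CPM values are counts divided by the TMM-scaled library size. Genes came from GENCODE M21 (GRCm38, the same assembly as mm10). The alternatives were DESeq2 1.42.0, other scalings, filters, thresholds, windows, covariates and leaving out each mouse. Counts were simulated with 200 of the 65483 peaks changed in CK, drawn from peaks of all levels. Of those changed 1.5-fold 64 of 200 were called (4 false calls), and of those changed 2-fold 138 of 200 (1 false call). In the data 6.84% of all peaks were called in CK, and recovery with that many changed peaks was not simulated. Smaller folds were not simulated either.

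The members, the marker and pathway lists and the tests were chosen with earlier results of these data known. All members are named with their strongest promoter peak and distal sum, every called peak, and for members without one the peak with the lowest adjusted p in CK. The peaks of Tnfaip3 and Malt1 under an adjusted p of 0.05, the other promoter peaks of Nfkb1 and the CK against C peaks were chosen after their values were seen. The sequence of 1 called peak is not reported here.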

Additional observations from a re-analysis of the deposited data

Results flagged for a closer look

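In 9 of 108 groups of 4 or 5 mice tested (members' promoters, distal sums and described peaks), 1 mouse stood apart from the rest of its genotype by Dixon's criterion, where chance gives about 1 in 20, or 5.4. At the Relb promoter, WT 1 had 106.0 CPM and the next mouse 96.6. At the Nfkb1 promoter, K 3 had 40.2 CPM, below the other K mice (nearest 43.9). Distal sums stood apart at Bcl10 in K 1 (90.0 CPM, nearest 82.4), at Rel in C 4 (119.6, nearest 109), at Nfkb2 in WT 2 (192, nearest 180.0) and at Nfkbia in WT 1 (101, nearest 93.8). The Nfkb2 exon peak 4.8 kb into the gene had 26.3 CPM in K 1 (nearest 20.99) and 25.2 in CK 5 (nearest 22.9). The peak 8.0 kb upstream of Rel had 15.7 CPM in WT 1, with the next WT mouse at 12.1.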

How the results depend on the processing

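Of 205 recomputed counts 151 stayed within 1.5 times the reported one. These include all counts for C against WT and for CK against K, which were 0 in every setting. All changed counts were those in K, in CK, in CK against C or of the distal sums. In K the 2 called peaks became 0 with GC content bins and 1 with total counts as library sizes, the Y chromosome gene signal as a covariate (chosen after seeing the data), only the 2 genotypes compared, a fold change over 1.5, a window of 25 kb or the gene body only. In CK the 3 became 5 with loess offsets, 15 at an adjusted p under 0.05, 7 in a window of 100 kb, and 1 with only the 2 genotypes, a fold change over 1.5, a window of 25 kb or the gene body only. In CK against C the count of 0 became 1 by DESeq2, 3 at an adjusted p under 0.05 and 2 in a window of 100 kb. The 0 distal sums called in CK became 1 with DESeq2, only the 2 genotypes, the gene body only or an adjusted p under 0.05, and 2 with GC content bins. Without 1 mouse at a time these counts lay at 0 to 0 in C, 0 to 2 in K, 0 to 5 in CK, 0 to 0 in CK against K, 0 to 1 in CK against C and 0 to 1 for distal sums. With the gene body only, the distal sum of Bcl10 in CK turned to -0.71 (adjusted p = 0.00847), where 0.059 was found in the full window, and that of Cd40 to -0.044. Fewer peaks enter the sums there. In the gene body of Bcl10 the intron peak 7.0 kb into the gene is the only distal peak, so its sum is that peak alone. The cause of the other changes was not tested. At 17483706 to 21857738 fragments a library, 32% of simulated 1.5-fold changes in CK, at peaks of all levels, were called, with 200 of 65483 peaks changed.

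Whether replicate numbers pair the mice is not settled. The labels do not say so, and 16 of 24 same-numbered pairs, not all, had a correlation of deviations over 0.1 (-0.18 to 0.49, median 0.20, against a median of -0.07 for other pairs). Of the 17 libraries 12 correlated best with their own number, and CK 5 could not, as no other genotype has a library of that number. With the replicate number as a block, the called peaks were 3 in K (2 higher and 1 lower), 7 in CK (4 higher and 3 lower) and 2 in CK against C. The added ones in CK were the Malt1 peaks 14.8 kb (-0.20, adjusted p = 0.0015) and 8.7 kb upstream (-0.54, adjusted p = 0.000593), the Tnfaip3 peak at 27.9 kb (-0.41, adjusted p = 0.000334) and the Nfkb1 promoter (0.17, adjusted p = 0.00897), and the Malt1 distal sum was called in K (-0.18, adjusted p = 0.00712) and CK (-0.20, adjusted p = 0.0011). The block with GC content bins gave 1 peak in K, 6 in CK (1 higher and 5 lower), 1 in CK against C and 2 distal sums.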
